A study of Mus musculus with 7 samples.

Results

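The 10 genes examined here are markers of the blood-brain barrier: the junction genes Cldn5, Ocln, Tjp1 and Lsr, the efflux pumps Abcb1a and Abcg2, the uptake transporters Slco1a4, Slco1c1 and Slc7a5, and the lipid transporter Mfsd2a. They were chosen by symbol from 32285 measured genes, and all 10 had at least 1 count in the kept cells of every library. Their levels were followed in single-cell RNA sequencing of the mouse ventricular-subventricular zone (V-SVZ), the stem cell niche along the lateral wall of the lateral ventricle, in 7 libraries that each pooled 2 to 3 mice of both sexes aged 31 to 33 days. The 3 control libraries came from mice with a floxed Prdm16 gene and no Cre. In the 3 Prdm16 cKO libraries, hGFAP-Cre deletes the same floxed Prdm16 alleles, and in the 1 Prdm16-Vcam1 DKO library it also deletes floxed Vcam1, so all groups carry the floxed Prdm16 alleles. hGFAP-Cre is active in radial glia from embryonic stages on and in the cells that descend from them, and endothelial cells and pericytes arise from other lineages. A library made from pooled mice is the replicate throughout.

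The blood-brain barrier is a property of the endothelial cells that line brain vessels. Claudins and occludin seal the gaps between neighbouring cells, scaffold proteins anchor them to the cytoskeleton, and tricellular proteins such as the product of Lsr close the points where 3 cells meet. Efflux pumps return lipophilic compounds to the blood, solute carriers admit hormones, amino acids and other nutrients, and the product of Mfsd2a moves lysophospholipids that carry omega-3 fatty acids and restrains transport by vesicles. Signals from the surrounding tissue, Wnt ligands among them, maintain this state.

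Transcripts were counted as unique molecular identifiers (UMIs), each of which marks 1 captured molecule. Levels are given as CPM, the UMIs of a gene per 1000000 UMIs of all cells of 1 type in 1 library. The 43346 kept cells (500 to 7000 detected genes and at most 10% mitochondrial counts) were assigned to types from marker lists that hold none of the 10 genes. A cell needed at least 4 markers of a list and a lead of at least 2 over every other list but the dividing one, and types are called "-like" for this reason. Dividing cells were gated apart, by at least 5 dividing markers and no lead. Their best other list had to be neuroblast or astroglial, or to have under 4 markers. The gate gave 2806 endothelial-like cells (181 to 648 per library, 6.47% of kept cells), 877 pericyte-like and 121 smooth muscle-like cells, and 5959 cells (13.7%) stayed unassigned. Endothelial-like cells had a median of 11 of 12 endothelial markers and at most 2 of any other list, 2787 of them fell into the endothelial clusters of a clustering made without the 10 genes, and 291 sat at the limit of the gate. By library, the median UMIs of a kept cell ran from 4959.5 to 8317.5, cKO libraries 2 and 3 kept 49.8% and 47.2% of their barcodes against 70.2% to 74.7% in the other 5 libraries, and pairs of libraries shared 2 to 70 barcodes. The file headers name Cell Ranger 6.0.1 for libraries 1 and 2 of both control and cKO, and 6.1.1 for the DKO library and library 3 of both other groups, and levels are given by header version where they follow it. Prdm16 in astroglial-like cells measured 66.5, 55.1 and 61 CPM in the controls, 51.6, 54.2 and 48.0 CPM in the cKO libraries and 53.3 CPM in the DKO library, and Vcam1 measured 161 to 221 CPM in the 6 control and cKO libraries and 106 CPM in the DKO library. Reads at the 3′ end of a transcript can remain when an upstream exon is deleted, so these values check the labels only weakly. Vcam1 was also lowest in the DKO library in endothelial-like cells of each vessel zone described below. It measured 141 CPM in arterial, 2.43 CPM in capillary and 76.2 CPM in venous cells, against 241 to 453, 4.16 to 37.0 and 116 to 691 CPM in the 6 control and cKO libraries.

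Promoters of 9 of the 10 genes were found in the RefSeq table of GRCm38.p6, which lists the 250 bases before and 50 after each start. The promoters of 4 genes are shown because their transcripts describe the patterns below: Cldn5, the main endothelial claudin, did not pass the test for a difference between vessel zones, and Slco1a4, Abcg2 and Mfsd2a did. Capitals mark the letters ACAAT, the core recognised by SOX factors, and CTTTGA, the core recognised by TCF/LEF factors of the Wnt pathway, each on either strand. Neither string holds the other. The windows are chr16:18776597-18776896 on the plus strand for Cldn5, chr6:141856171-141856470 on the minus strand for Slco1a4, chr6:58584283-58584582 on the plus strand for Abcg2 (the first of 3 listed starts) and chr4:122961139-122961438 on the minus strand for Mfsd2a.
Cldn5: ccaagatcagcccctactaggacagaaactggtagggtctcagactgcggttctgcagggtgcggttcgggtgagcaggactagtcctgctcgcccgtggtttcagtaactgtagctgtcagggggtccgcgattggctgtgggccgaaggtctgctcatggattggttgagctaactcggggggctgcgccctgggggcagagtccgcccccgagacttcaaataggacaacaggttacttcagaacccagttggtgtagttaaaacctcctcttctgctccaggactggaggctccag
Slco1a4: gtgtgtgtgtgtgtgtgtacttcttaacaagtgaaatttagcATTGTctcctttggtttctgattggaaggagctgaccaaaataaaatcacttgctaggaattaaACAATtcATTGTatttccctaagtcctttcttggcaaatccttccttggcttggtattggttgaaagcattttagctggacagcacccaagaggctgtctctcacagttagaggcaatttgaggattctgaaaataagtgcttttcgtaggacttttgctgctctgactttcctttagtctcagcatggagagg
Abcg2: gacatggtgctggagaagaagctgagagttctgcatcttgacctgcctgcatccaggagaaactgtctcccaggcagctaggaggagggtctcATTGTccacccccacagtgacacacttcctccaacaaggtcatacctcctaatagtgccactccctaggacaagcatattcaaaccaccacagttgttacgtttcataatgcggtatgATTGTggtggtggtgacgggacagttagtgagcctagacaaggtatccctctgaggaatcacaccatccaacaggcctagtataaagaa
Mfsd2a: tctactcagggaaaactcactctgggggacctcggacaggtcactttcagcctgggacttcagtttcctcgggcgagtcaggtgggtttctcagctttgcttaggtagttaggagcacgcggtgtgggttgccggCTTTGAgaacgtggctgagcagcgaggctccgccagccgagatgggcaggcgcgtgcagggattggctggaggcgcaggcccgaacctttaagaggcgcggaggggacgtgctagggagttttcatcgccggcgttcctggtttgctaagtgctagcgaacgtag
The Slco1a4 window held 3 SOX strings, the Abcg2 window 2, the Mfsd2a window 1 TCF/LEF string and the Cldn5 window neither. Over the 9 windows, 2 held a SOX string, against 31% of all 32851 promoters, and 3 (Mfsd2a, Abcb1a and Lsr) held a TCF/LEF string, against 16%. The string AGGAAG of ETS factors was in 4 of 9 windows (35.4% of all promoters) and TGTTTAC of forkhead factors in 1 of 9 (3.65%). GC content was 40.3% to 42% in Abcb1a, Slco1a4 and Slco1c1, 50% in Abcg2 and 58.3% to 67.3% in the other 5, with a median of 52.7% over all promoters. A string match is a description of these windows and not a binding site.

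In GENCODE vM21 on GRCm38, Cldn5 lies on chromosome 16 (18776847 to 18778262, plus strand), Ocln on chromosome 13 (100496507 to 100552718, minus), Mfsd2a on chromosome 4 (122946850 to 122961188, minus), Abcb1a on chromosome 5 (8660077 to 8748575, plus) and Slc7a5 on chromosome 8 (121881150 to 121907694, minus). Tjp1 (65296165 to 65527781, minus) and Lsr (30957770 to 30973464, minus) share chromosome 7, and Abcg2 (58584523 to 58695676, plus), Slco1a4 (141805440 to 141856199, minus) and Slco1c1 (141524368 to 141570177, plus) share chromosome 6. Slco1c1 and Slco1a4 lie in the same cluster of organic anion transporter genes. The RefSeq start used for the Abcb1a promoter lies upstream of this gene model (window 8566841 to 8567140), and its strings and GC content describe that window. The start used for the Tjp1 promoter lies inside the Tjp1 gene model (window 65371195 to 65371494).

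All 10 genes had their highest mean level in endothelial-like cells, and each was higher there than in pericyte-, smooth muscle-, astroglial-, ependymal- and microglia-like cells (edgeR quasi-likelihood test with the library as a block and Benjamini-Hochberg adjustment over all genes, threshold 0.05). Contrasts between cell types call many genes: 27.5% of 9740 tested genes were called higher in endothelial- than in pericyte-like cells, 22.7% of 9151 against smooth muscle-like, 38% of 12940 against astroglial-like, 41.8% of 11850 against ependymal-like and 34.4% of 10160 against microglia-like cells. The members were picked as barrier genes, so their 10 of 10 describes their distribution. Plvap, which marks leaky, fenestrated vessels, stayed between 0 and 1.59 CPM in the endothelial-like cells of every library, and Cdh5, the adherens junction cadherin of all endothelia, measured 430 to 505 CPM.

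**Figure D1:**
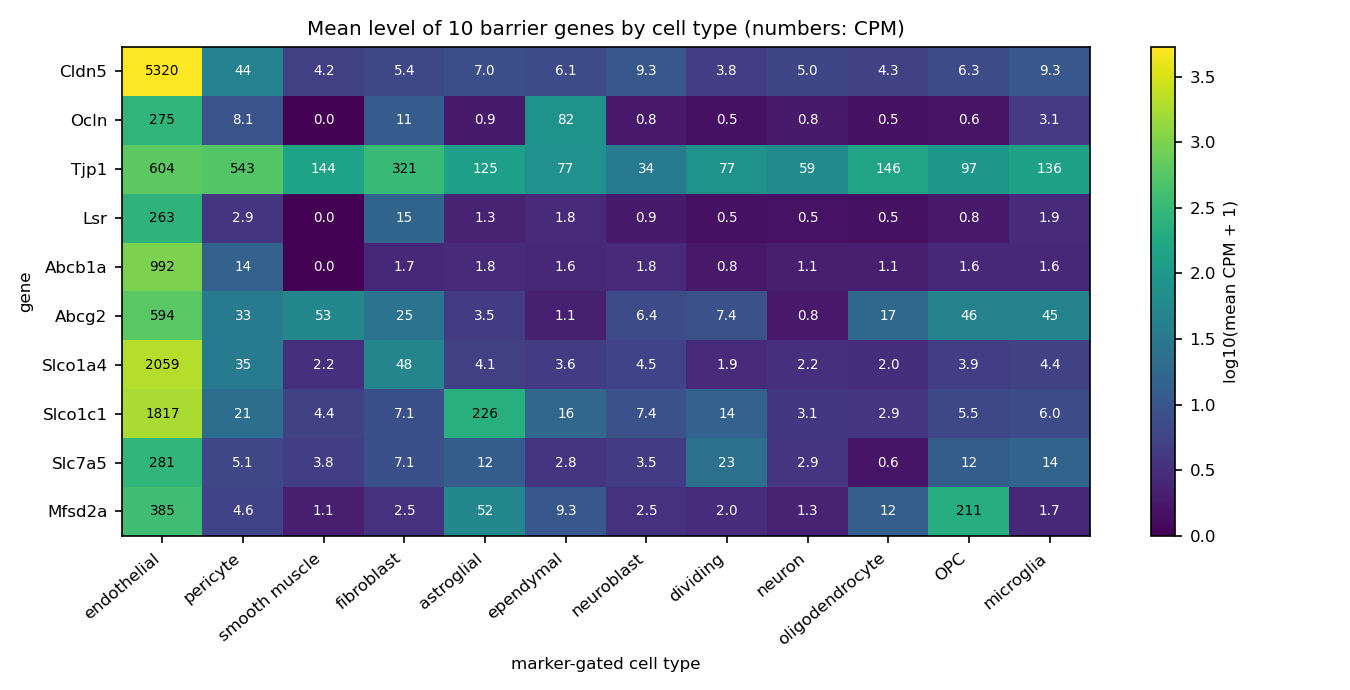
Heat map of the mean level (CPM, printed in each field, colour on a log10 scale) of the 10 genes in rows and 12 marker-gated cell types in columns, averaged over the libraries with at least 10 cells of a type. The endothelial column is the brightest in every row, with further fields above 50 CPM for Ocln in ependymal-like, Slco1c1 in astroglial-like, Mfsd2a in OPC- and astroglial-like and Abcg2 in smooth muscle-like cells, and for Tjp1 in every type but neuroblast-like cells.

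Among the junction genes, Cldn5 was the sharpest. Its endothelial level was 5320 ± 891 CPM (SD, n = 7), with 6162, 5395 and 5434 CPM in the controls, 6645, 4486 and 5021 CPM in the cKO libraries and 4098 CPM in the DKO library. Pericyte-like cells followed at 43.7 ± 32.2 CPM (SD, n = 7; 0 to 91.0), 122 times lower, and the other types averaged 3.76 to 9.28 CPM. With each cell thinned to 2000 UMIs, 99.2% of 2231 endothelial-like cells had a Cldn5 UMI (95% Wilson interval 98.7% to 99.5%, which covers counting error only), against 3.41% of pericyte-like and 1.35% of astroglial-like cells, a type that should lack it. Before thinning the median depth was 4926 UMIs in endothelial-like and 6453 in astroglial-like cells.

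Ocln, the gene of occludin, measured 275 ± 41.6 CPM (SD, n = 7) in endothelial-like cells and 81.8 ± 29.7 CPM in ependymal-like cells, the ciliated cells that line the ventricle. The ranges of these 2 types did not overlap with each other or with the next type, fibroblast-like cells at 11 ± 13.5 CPM. After thinning, 42.2% of endothelial-like and 15.1% of ependymal-like cells had an Ocln UMI, against 0.179% of astroglial-like and 0.178% of neuroblast-like cells. Cldn5 gave no second level in ependymal-like cells, at 6.11 CPM.

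Lsr, a gene of tricellular junctions, reached 263 ± 46.8 CPM (SD, n = 7) in endothelial-like cells, and the next type was fibroblast-like cells at 14.6 ± 12 CPM. Smooth muscle-like cells of the 6 libraries with at least 10 such cells had 0 counts of Lsr, Ocln and Abcb1a among 1002985 UMIs. Over all 121 smooth muscle-like cells, which include those of cKO library 2, 0.826% had a UMI of Lsr and 0.826% one of Ocln, and 0% had one of Abcb1a. At a floor of 3 counts over the 6 libraries, endothelial-like cells were at least 332-fold higher for Abcb1a.

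Tjp1, the gene of the scaffold protein ZO-1, was the broadest. It measured 604 ± 101 CPM in endothelial-like, 543 ± 67.8 CPM in pericyte-like and 321 ± 143 CPM in fibroblast-like cells (SD, n = 7), and the lowest type, neuroblast-like cells, still had 34.3 ± 4.62 CPM. Endothelial- and pericyte-like ranges overlapped (470 to 760 and 463 to 666 CPM). Within libraries the endothelial level was higher by a log2 fold change of 0.24 ± 0.07 (SE, edgeR adjusted p = 0.00487), a call that was lost with at most 5% mitochondrial counts (0.16, adjusted p = 0.101).

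The efflux pumps differed in how closely they kept to vessels. Abcb1a, which encodes P-glycoprotein, measured 992 ± 110 CPM (SD, n = 7) in endothelial-like cells, 13.8 ± 5.6 CPM in pericyte-like cells and at most 1.84 CPM on average in any other type. Abcg2, the gene of the breast cancer resistance protein, measured 594 ± 88.8 CPM in endothelial-like cells (SD, n = 7). Lower levels of Abcg2 followed in smooth muscle-like cells (52.6 ± 15.2 CPM, n = 6), OPC-like cells (46.1 ± 5.69 CPM, n = 7), which are oligodendrocyte precursors, and microglia-like cells (45.1 ± 4.04 CPM, n = 7). Pericyte-like (32.9 ± 9.69 CPM), fibroblast-like (25.4 ± 18.7 CPM) and oligodendrocyte-like cells (17.1 ± 2.33 CPM) continued this order, each with a range that overlapped that of the type before it. Astroglial-like cells had 3.55 CPM and ependymal-like cells 1.10 CPM, and after thinning 9.71% of OPC-like and 8.44% of microglia-like cells had an Abcg2 UMI against 0.693% of astroglial-like cells.

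Of the uptake transporters, Slco1a4 (organic anions) measured 2059 ± 458 CPM and Slco1c1 (thyroxine) 1817 ± 133 CPM in endothelial-like cells (SD, n = 7). Slco1c1 had a second level in astroglial-like cells of 226 ± 54.0 CPM, with no overlap with the next type, and 35.2% of them had a Slco1c1 UMI after thinning against 1.81% of neuroblast-like cells. Slco1a4 lacked one: its astroglial level was 4.12 CPM, and fibroblast-like (48.1 ± 32.6 CPM) and pericyte-like cells (35 ± 15.5 CPM) followed the endothelial-like cells. Slc7a5, the light chain of the LAT1 transporter of large neutral amino acids, measured 281 ± 145 CPM in endothelial-like cells, the widest spread relative to its mean among the 10 genes, and 22.8 ± 19.1 CPM in dividing cells, the next type.

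Mfsd2a measured 385 ± 85.0 CPM in endothelial-like and 211 ± 49.2 CPM in OPC-like cells (SD, n = 7), and these ranges overlapped (249 to 463 and 153 to 296 CPM). The OPC-like level was 188, 296 and 178 CPM in the controls, 153, 231 and 184 CPM in the cKO libraries and 244 CPM in the DKO library. Astroglial-like cells had 51.6 ± 16.1 CPM and mature oligodendrocyte-like cells 12.5 ± 3.36 CPM, and the OPC- and astroglial-like ranges did not overlap with each other or with the types below. After thinning, 33.2% of OPC-like cells had a Mfsd2a UMI, against 49.4% of endothelial-like and 0.421% of neuroblast-like cells.

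The members were detected together in single cells. Of the 2231 endothelial-like cells that could be thinned to 2000 UMIs, the median cell had a UMI of 7 of the 10 genes and 92.6% had at least 5. Of 733 pericyte-like cells, 0.682% had at least 5 and 33.3% had none. Pearson correlations of mean log2(CPM + 1) over 12 types were ranked among 14449 genes, with the markers of the gates and zones left out. Among these, the genes most like Cldn5 were Sox17 (r = 0.99), Abcb1a (0.99), Gm9946, Pglyrp1 and AU021092. Lsr was most like Hmcn1, Cdh5, Hspa12b, Slco1a4 and Kcp (0.99 to 0.97), and Slco1c1, with its astroglial level, was most like Als2cl, Unc45b, Gm9917, Hbb-bt and Adgrg6 (0.94 to 0.90). These correlations rest on 12 types that share the same 7 libraries, and they order the genes only.

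Endothelial cells change along the vessel tree, and the endothelial-like cells were therefore divided by zone markers, again without any of the 10 genes, into 225 arterial, 2189 capillary and 151 venous cells (13 to 65, 129 to 496 and 12 to 31 per library), with 241 in no zone. A zone needed at least 2 markers and a lead of 1, counted over lists of unequal length. Arterial cells carried on average 5.76 of 9 arterial markers and venous cells 5.93 of 12 venous markers. Arterial and venous cells also carried 3.46 and 4.13 of 7 capillary markers, against 4.84 in capillary cells, so the zones were not sharply separated by that list. Of the 10 genes, 4 were called between arterial and capillary cells (17.9% of 6657 genes tested), 4 between venous and capillary cells (12.8%) and 7 between venous and arterial cells (17.5%), with the library as a block. Cldn5, Abcb1a and Lsr were called in none of the 3 contrasts.

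**Figure D2:**
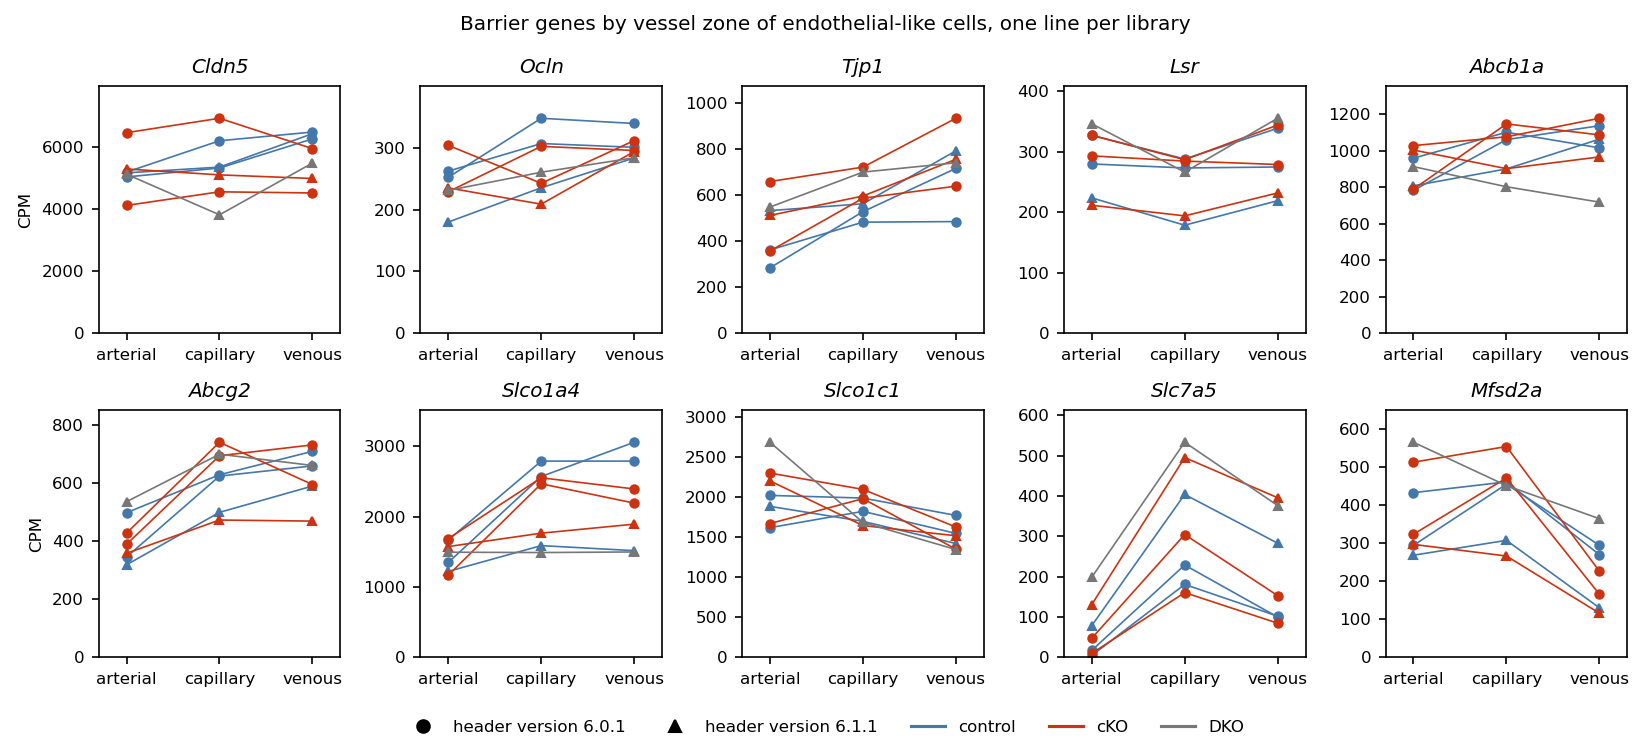
Level (CPM, axes from 0) of the 10 genes in arterial, capillary and venous endothelial-like cells, with 1 line per library, coloured by genotype and with circles or triangles for the version in the file header. Slc7a5 peaks in capillary cells in all 7 libraries, Mfsd2a and Slco1c1 fall from capillary to venous cells in all 7, Tjp1 and Abcg2 are lowest in arterial cells, and Cldn5, Abcb1a and Lsr are the genes called in no pair of zones.

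Slc7a5 differed most between zones. Its arterial level was 4.67, 17.5 and 78.9 CPM in the controls, 9.94, 47.4 and 131 CPM in the cKO libraries and 199 CPM in the DKO library, resting on 163 counts in all. The capillary level was 181, 229 and 404 CPM in the controls, 161, 305 and 496 CPM in the cKO libraries and 534 CPM in the DKO library, above the arterial level of the same library in all 7. Arterial cells were lower than capillary cells by a log2 fold change of -2.27 ± 0.21 (SE, edgeR adjusted p = 2.44e-07), with a mean log2 difference of -3.80 in the version 6.0.1 and -1.89 in the version 6.1.1 libraries, and 11.5% of them had a Slc7a5 UMI after thinning against 45.7% of capillary cells. Venous cells lay between the other zones in each library, lower than capillary cells (-0.64 ± 0.17, adjusted p = 0.0177) and higher than arterial cells (1.63 ± 0.23, adjusted p = 5.59e-05). The call against capillary cells was lost with at most 5% mitochondrial counts (-0.34, adjusted p = 0.0998) and without cKO library 2 (-0.58, adjusted p = 0.0851).

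Mfsd2a was low in veins. Venous cells had 294, 270 and 130 CPM in the controls, 166, 226 and 116 CPM in the cKO libraries and 364 CPM in the DKO library, against capillary levels of 454, 461 and 307, of 471, 553 and 266, and of 451 CPM. The venous level was lower in every library, by -0.97 ± 0.12 on the log2 scale (SE, edgeR adjusted p = 1.13e-06), and also lower than the arterial level in 6 of 7 libraries (-0.87 ± 0.14, adjusted p = 1.39e-05), the exception being control library 1 at 294 CPM in both zones. Arterial and capillary Mfsd2a did not pass the test (-0.10, 95% interval -0.34 to 0.13).

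Abcg2 and Slco1a4 were low in arteries. Abcg2 measured 410 ± 81.1 CPM in arterial, 622 ± 102 CPM in capillary and 630 ± 88.5 CPM in venous cells (SD, n = 7), and the arterial level was lower than the capillary one in 7 of 7 libraries (-0.56 ± 0.09, SE, edgeR adjusted p = 1.79e-06). Slco1a4 measured 1452 ± 209 CPM in arterial and 2175 ± 539 CPM in capillary cells, lower by -0.50 ± 0.10 (adjusted p = 0.000181) and in 6 of 7 libraries. The mean log2 difference of Slco1a4 was -0.84 in the 4 libraries with header version 6.0.1 and -0.18 in the 3 with version 6.1.1, where the DKO library had 1495 CPM in arterial and 1490 CPM in capillary cells. The Slco1a4 call was lost with at most 5% mitochondrial counts (-0.23, adjusted p = 0.222) and with the stricter gate (-0.53, adjusted p = 0.0575).

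Slco1c1 ran the other way from Slco1a4. It was lower in venous than in arterial cells in 7 of 7 libraries (1512 ± 155 and 2055 ± 375 CPM, SD, n = 7, log2 fold change -0.45 ± 0.09, edgeR adjusted p = 0.0002, with mean log2 differences of -0.27 and -0.65 in the version 6.0.1 and 6.1.1 libraries), whereas Slco1a4 was higher in venous than in arterial cells (0.53 ± 0.10, adjusted p = 8.59e-05). That Slco1a4 call was lost with at most 5% mitochondrial counts (0.23, adjusted p = 0.223) and with the stricter gate (0.44, adjusted p = 0.134), and its mean log2 difference was 0.83 in the version 6.0.1 and 0.19 in the version 6.1.1 libraries. Venous Slco1c1 was also lower than capillary Slco1c1 in 7 of 7 libraries (-0.26 ± 0.09, adjusted p = 0.0473), a call that was lost under 9 of 12 alternatives.

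Tjp1 rose from arterial (465 ± 133 CPM) through capillary (597 ± 86.8 CPM) to venous cells (723 ± 138 CPM, SD, n = 7) in each of the 7 libraries. The venous level exceeded the arterial one by 0.63 ± 0.10 on the log2 scale (SE, edgeR adjusted p = 1.1e-06), and both smaller steps were called (arterial minus capillary -0.34, adjusted p = 0.00597, and venous minus capillary 0.30, adjusted p = 0.0167), though neither under every alternative. At 2000 UMIs per cell the shares of cells with a Tjp1 UMI did not follow the CPM, at 62.8% of arterial, 62.8% of capillary and 63.8% of venous cells. Ocln was higher in venous than in arterial cells in 7 of 7 libraries (301 ± 19.4 and 242 ± 37.7 CPM, 0.35 ± 0.11, adjusted p = 0.0185), a call lost with at most 5% mitochondrial counts (adjusted p = 0.113), with the stricter gate (0.386) and without control library 3 (0.141). Cldn5 differed by 0.01 between arterial and capillary cells (95% interval -0.16 to 0.18) and by 0.14 between venous and capillary cells (-0.03 to 0.32), and Abcb1a by -0.11 (-0.28 to 0.07) and 0.06 (-0.11 to 0.24). Lsr lay just beyond the threshold in both contrasts with capillary cells (0.23, adjusted p = 0.0579, and 0.24, adjusted p = 0.0524).

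Other transporters of the barrier shared the arterial low of Slc7a5. Of a list of 24 further transporters, 19 were tested, and 11 were lower and 3 higher in arterial than in capillary cells (7.48% and 10.4% of all tested genes), with a median log2 fold change of -0.66 against 0.00 over all genes. The monocarboxylate transporter Slc16a1 (-2.21), the organic anion transporter Slco2b1 (-1.76), the iron exporter Slc40a1 (-1.75) and the organic anion transporter Slc22a8 (-1.46) fell most, and Slc3a2, the heavy chain that pairs with the product of Slc7a5 and was named for this after its value was seen, was lower by -1.20 ± 0.10 (SE, edgeR adjusted p = 4.91e-14). The glucose transporter Slc2a1 was higher in arterial cells (0.56, adjusted p = 7.57e-07), as was Slc6a6 (0.84). Between venous and capillary cells 7 of the 19 were higher, Slc2a1 among them (0.40), and 0 were lower (7.03% and 5.77% of all tested genes), whereas Slc7a5 was lower there.

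Of 14 genes of vesicle transport, 11 were tested, and 4 were lower and 3 higher in arterial than in capillary cells (7.48% and 10.4% of all tested genes), with a median log2 fold change of 0.11. The transferrin receptor Tfrc was lower in arterial than in capillary cells (-2.12 ± 0.15, SE, edgeR adjusted p = 4.13e-10) together with Igf1r, Lrp8 and Insr, while the caveolar coat genes Cavin3 (1.21), Cavin2 (0.67) and Cavin1 (0.32) were higher. Between venous and capillary cells 3 of the 11 were higher and 2 lower (7.03% and 5.77% of all tested genes). The reference gene Cav1 was higher in venous cells (0.35, edgeR adjusted p = 0.0119), and between arterial and capillary cells it did not pass the test (0.17). Of 24 Wnt and barrier regulators 21 were tested, and 5 were lower and 4 higher in arterial cells (7.48% and 10.4% of all tested genes), with a median of 0.01. Apcdd1 (-1.53), Nkd1 (-0.88), Notum (-0.73) and Lef1 (-0.38) were lowest among those called, and Reck (1.03), Sox18 (0.91), Sox17 (0.77) and Lrp6 (0.40) were higher. Axin2 (-0.15) and Tcf7 (-0.24), which belong to the Wnt pathway and were named after their values were seen, did not pass the test. Of 17 further junction genes 9 were tested, with F11r (0.44) and Cdh5 (0.26) higher and Jam2 (-0.42) lower in arterial cells (10.4% and 7.48% of all tested genes).

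Markers of smooth muscle were higher in arterial than in capillary cells in 4 of 7 libraries and lower in the other 3. Their summed level in arterial cells was 1521, 2633 and 1074 CPM in the controls and 3147 CPM in cKO library 1, against 166, 154 and 122 CPM in cKO libraries 2 and 3 and the DKO library, and it was 138 to 348 CPM in capillary and venous cells of all libraries. Pericyte markers summed to 439 to 7075 CPM in arterial, 2142 to 4556 CPM in capillary and 1726 to 4080 CPM in venous cells. Their part in the zone differences was not tested. In the 3 libraries with the lower sums, arterial Slc7a5 was 47.4, 131 and 199 CPM against capillary levels of 305, 496 and 534 CPM. In control libraries 1 to 3 and cKO library 1 it was 4.67, 17.5, 78.9 and 9.94 CPM against 181, 229, 404 and 161 CPM. Abcg2 and Tjp1 were lower in arterial than in capillary cells in all 7, with Tjp1 at 659 and 722 CPM in cKO library 2. The 3 libraries were set apart after their sums were seen, and their arterial pericyte markers still summed to 2452, 1925 and 439 CPM. Slco1a4 was lower in 2 of the 3: it measured 1688, 1575 and 1495 CPM in their arterial and 2552, 1765 and 1490 CPM in their capillary cells. Median UMIs per cell were 6441 in arterial, 4565 in capillary and 9852 in venous cells. With cells thinned to 2000 UMIs, 53.4% of arterial and 68.0% of capillary cells had an Abcg2 UMI, 83.2% and 94.0% a Slco1a4 UMI, and 34.6% of venous and 52.0% of capillary cells a Mfsd2a UMI, while the Tjp1 shares were level.

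Libraries differed in some of these genes along the version named in the file header. In endothelial-like cells Slc7a5 was 132 to 236 CPM in the 4 libraries of version 6.0.1 and 336 to 497 CPM in the 3 of version 6.1.1, a ratio of means of 2.44 (p = 0.0286 in an exact two-sided permutation of the libraries, which can go no lower with 4 and 3). Slco1a4 ran opposite, at 2268 to 2531 and 1493 to 1756 CPM (log2 -0.61, exact permutation p = 0.0286), and Abcb1a was 1040 to 1109 and 831 to 907 CPM (-0.29, exact permutation p = 0.0286). These are 3 of 10 genes without overlap, where 13.7% of 11817 tested genes had none. Slc7a5 was higher without overlap in the version 6.1.1 libraries in 7 of 11 cell types, Slco1a4 was lower in 2, and the partner gene Slc3a2 was lower in endothelial-like cells (684 and 546 CPM). Some of the 7 types were near the floor for Slc7a5. It measured 0 to 0.56 and 0.71 to 1.78 CPM in oligodendrocyte-like cells. The ranges were 0.368 to 1.36 and 3.37 to 9.55 CPM in ependymal-like cells, and 0.953 to 2.77 and 4.89 to 6.78 CPM in neuroblast-like cells. No share over all genes is given for these counts of types. The headers also split the groups unevenly, with control 3, cKO 3 and the DKO library on one side, and what else set these libraries apart is not given in the sources used here.

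Loss of Prdm16 in the radial glial lineage was then compared in the endothelial-like cells, with 3 cKO against 3 control libraries and the DKO library in the same fit. None of the 10 genes was called (0% of 11817 genes were called by edgeR, 304 had an unadjusted p under 0.05, and DESeq2 called 6 genes and 0 members). With the replicate number as a block, 12 genes and 0 members were called, and Tjp1 had a log2 fold change of 0.42 (adjusted p = 0.839). Fitted log2 fold changes lay between -0.04 for Ocln and 0.42 for Tjp1. The 95% intervals were -0.42 to 0.50 for Cldn5, -0.41 to 0.32 for Ocln, -0.29 to 0.57 for Lsr, -0.22 to 0.54 for Abcb1a and -0.20 to 0.62 for Abcg2. They were -0.38 to 0.59 for Slco1a4, -0.27 to 0.53 for Slco1c1, -0.39 to 0.65 for Mfsd2a and -1.06 to 1.79 for Slc7a5. All these intervals come from the fit without the block. Scaling by TMM raised the values by 0.11 (median over all genes) over the ratio of mean CPM, and on the CPM scale Cldn5 (-0.07) and Slco1a4 (-0.03) were on the other side of 0.

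**Figure D3:**
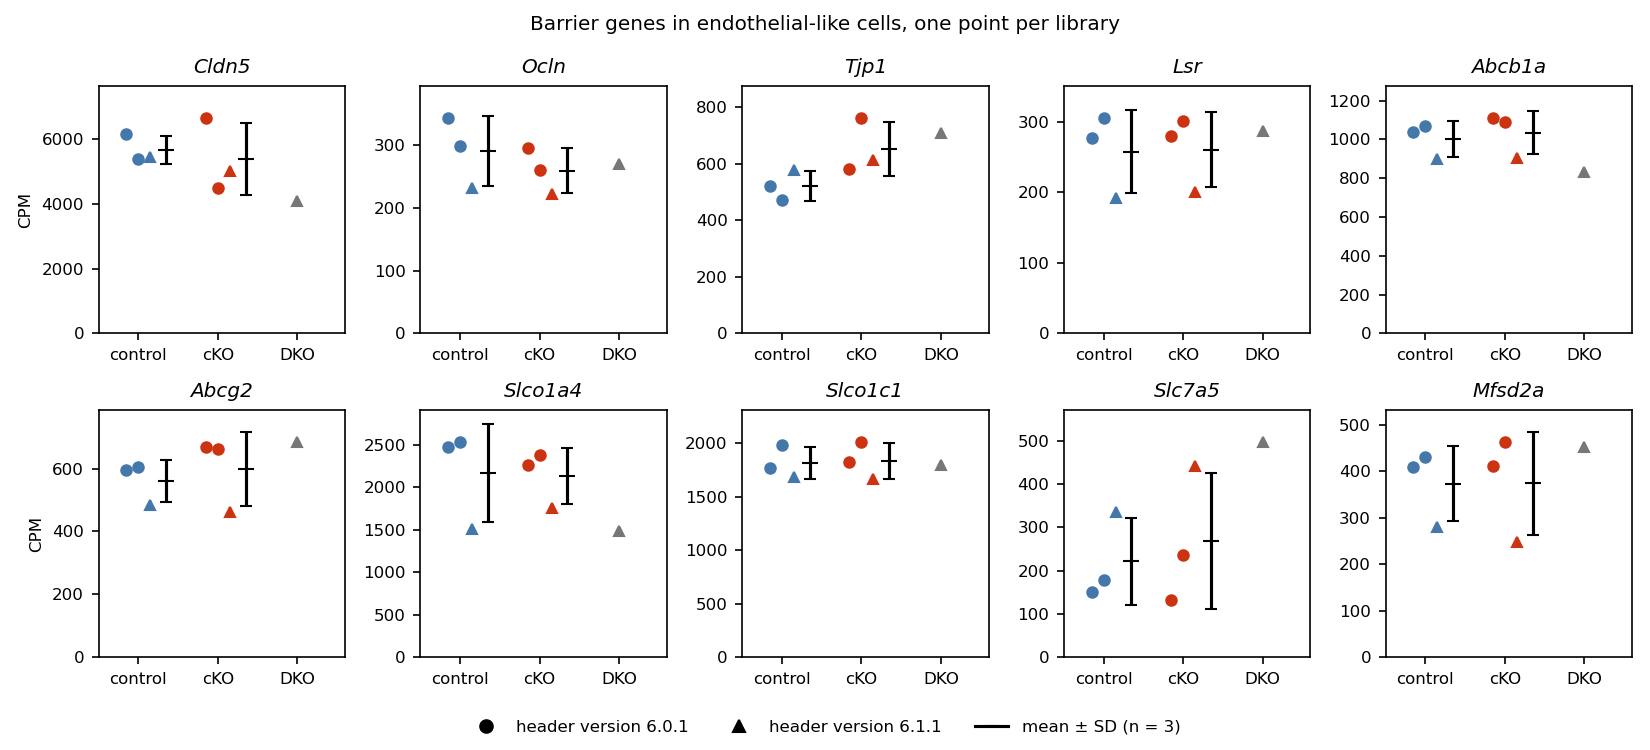
Level (CPM, axes from 0) of the 10 genes in endothelial-like cells by genotype, with 1 point per library, circles or triangles for the header version, and bars for the mean ± SD of the 3 control and the 3 cKO libraries. Control and cKO points overlap for all genes but Tjp1, and triangles lie apart from circles for Slc7a5, Slco1a4 and Abcb1a.

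Tjp1 was the member with the largest value. It measured 521, 470 and 576 CPM in the controls, 580, 760 and 612 CPM in the cKO libraries and 709 CPM in the DKO library, so the control and cKO libraries did not overlap. The fitted log2 fold change was 0.42 ± 0.19 (SE, edgeR unadjusted p = 0.0478, adjusted p = 0.999), an exact two-sided permutation of the libraries gave p = 0.1, its lowest possible value with 3 and 3, and 8.71% of all tested genes were without overlap. The log2 ratio was 0.43 among the version 6.0.1 libraries and 0.09 between the 2 libraries of version 6.1.1. In pericyte-like cells Tjp1 overlapped between control (529 ± 22.9 CPM) and cKO (541 ± 109 CPM, SD, n = 3). In ependymal-like cells it did not (65.8 ± 5.23 and 86.5 ± 17.7 CPM, log2 fold change 0.42, edgeR unadjusted p = 0.0374, adjusted p = 0.724), where 9.05% of genes with a mean of at least 20 CPM were without overlap. In dividing cells the ranges overlapped (68.5 ± 8.91 and 84.0 ± 10.6 CPM, 0.36, edgeR unadjusted p = 0.0437, adjusted p = 0.83).

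**Figure D4:**
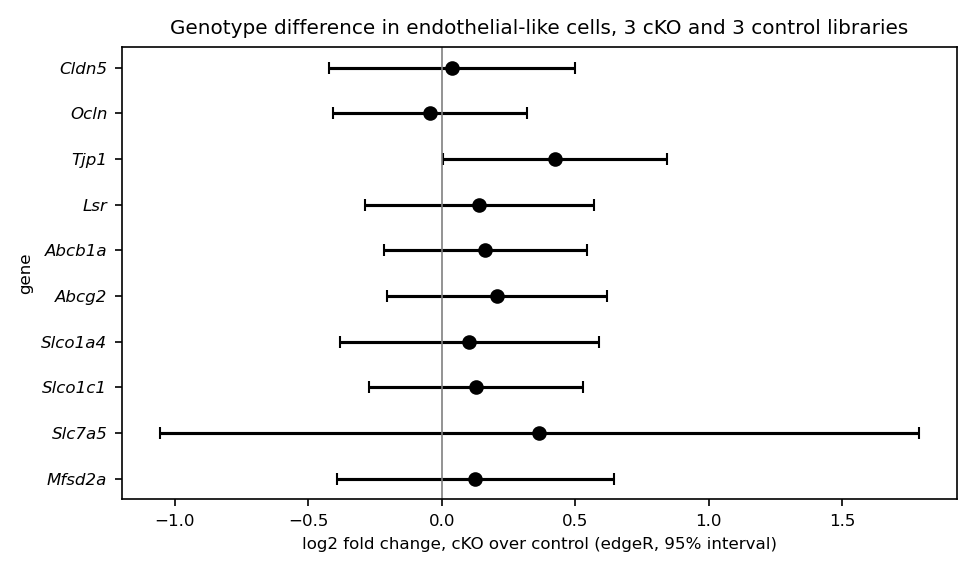
Fitted log2 fold change of cKO over control in endothelial-like cells for each of the 10 genes (points), with a line at 0. Bars are 95% intervals from edgeR's quasi-likelihood fit without the replicate block. The intervals of 9 genes include 0, that of Tjp1 has its lower end at 0.00487, and that of Slc7a5 is the widest.

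The wider barrier lists gave the same count. Of 11 junction, 22 transport, 11 vesicle transport and 21 Wnt and barrier genes tested in endothelial-like cells, 0 were called by edgeR, and their median log2 fold changes were 0.04, 0.08, 0.10 and 0.12 against 0.01 over all genes. Among the reference genes, Tfrc had the largest value (0.66 ± 0.31, SE, adjusted p = 0.999), with 503, 479 and 379 CPM in the controls, 607, 984 and 386 CPM in the cKO libraries and 574 CPM in the DKO library, and Slc2a1 differed by 0.08. The arterial share of endothelial-like cells was 9.0 ± 0.912% in the controls and 7.02 ± 0.315% in the cKO libraries (SD, n = 3, exact permutation p = 0.1, the smallest possible), and the capillary share was 77.5 ± 0.845% and 75.6 ± 4.06% (exact permutation p = 0.6). The venous share was 4.84 ± 0.719% and 8.38 ± 5.29% (exact permutation p = 0.3), with 14.4% in cKO library 2.

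Endothelial-like cells made up 5.86 ± 1.11% of kept cells in the controls and 7.88 ± 1.59% in the cKO libraries (SD, n = 3, exact two-sided permutation test, p = 0.2), with 6.5% in the DKO library. Pericyte-like cells made up 1.76 ± 0.0441% and 2.40 ± 0.271%, without overlap (exact permutation p = 0.1, the smallest possible), and smooth muscle-like cells 0.285 ± 0.0904% and 0.284 ± 0.0239% (exact permutation p = 1). A share of dissociated cells also depends on which cells survive the filter, and cKO libraries 2 and 3 lost about as many barcodes as they kept.

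Outside the endothelium, the glial and ependymal cells that hGFAP-Cre reaches express several of the 10 genes. Over the 11 other types, 68 combinations of a member and a type passed the filter on low counts, 10 had an unadjusted p under 0.05 (6 higher and 4 lower in cKO) and 0 were called by edgeR (DESeq2 0), against 0.33% of 15171 genes called in astroglial-like and 0.0313% of 12766 in ependymal-like cells. The share was 0.0493% in neuroblast-, 0.0219% in fibroblast-, 0.0109% in microglia- and 0.0082% in neuron-like cells, and 0% in the other types. These shares count adjusted calls and give no scale for the 10 unadjusted values. For those, no share over all genes is given here. Slco1c1 in astroglial-like cells measured 253, 283 and 255 CPM in the controls, 221, 169 and 137 CPM in the cKO libraries and 264 CPM in the DKO library. The control and cKO ranges did not overlap, and the DKO library lay among the controls. The log2 fold change was -0.53 ± 0.18 (SE, edgeR unadjusted p = 0.0137, adjusted p = 0.239), with log2 ratios of -0.46 and -0.89 within versions 6.0.1 and 6.1.1. In ependymal-like cells Slco1c1 ran the other way, from a low level: 11.4, 8.18 and 13.1 CPM in the controls and 17.7, 36.2 and 12.3 CPM in the cKO libraries, which overlapped (0.88, edgeR unadjusted p = 0.0373, adjusted p = 0.724). Abcg2 (0.86, unadjusted p = 0.0242, adjusted p = 0.308) and Slco1a4 (0.73, unadjusted p = 0.0287, adjusted p = 0.326) in astroglial-like cells rested on levels of at most 5.78 and 6.39 CPM in any library. The remaining values with an unadjusted p under 0.05 were Ocln in oligodendrocyte-like cells (-1.73) and Abcg2 in dividing cells (-0.53). They too rested on low levels, at 0.081 to 1.19 CPM for this Ocln and 4.95 to 10.5 CPM for this Abcg2 over the libraries.

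Tjp1 in astroglial-like cells measured 106, 71.7 and 108 CPM in the controls, 109, 173 and 156 CPM in the cKO libraries and 149 CPM in the DKO library (0.67 ± 0.22, SE, edgeR unadjusted p = 0.0109, adjusted p = 0.215). The control and cKO libraries did not overlap, with control library 3 and cKO library 1 next to each other. Without cKO library 1 both Tjp1 (0.85, adjusted p = 0.00881) and Slco1c1 (-0.72, adjusted p = 0.0194) were called. That library was the cKO library closest to the controls for both genes. How many of all genes were called without it is not given here. In astroglial-like cells 12.8% of genes with a mean of at least 20 CPM did not overlap between control and cKO.

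Ocln in ependymal-like cells measured 124, 106 and 88.6 CPM in the controls, 94.3, 47.4 and 46.8 CPM in the cKO libraries and 65.2 CPM in the DKO library. The control and cKO ranges overlapped through cKO library 1, and the log2 fold change was -0.68 ± 0.23 (SE, edgeR unadjusted p = 0.0126, adjusted p = 0.62). It was called without cKO library 1 (-1.05, adjusted p = 0.00726) and with no filter on low counts (-0.68, adjusted p = 0.0284). Library 1 was the cKO library closest to the controls. How many of all genes were called in these settings is not given here. In the same cells Prdm16 measured 27.6, 24.5 and 20.3 CPM in the controls and 18.5, 8.03 and 8.64 CPM in the cKO libraries. In astroglial-like cells, given above, the cKO library closest to the controls in Prdm16 was library 2, and a link between Prdm16 and these genes was not tested. Mfsd2a in OPC-like cells overlapped between control (221 ± 65.6 CPM) and cKO (189 ± 39.5 CPM, SD, n = 3, exact permutation p = 0.6).

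**Figure D5:**
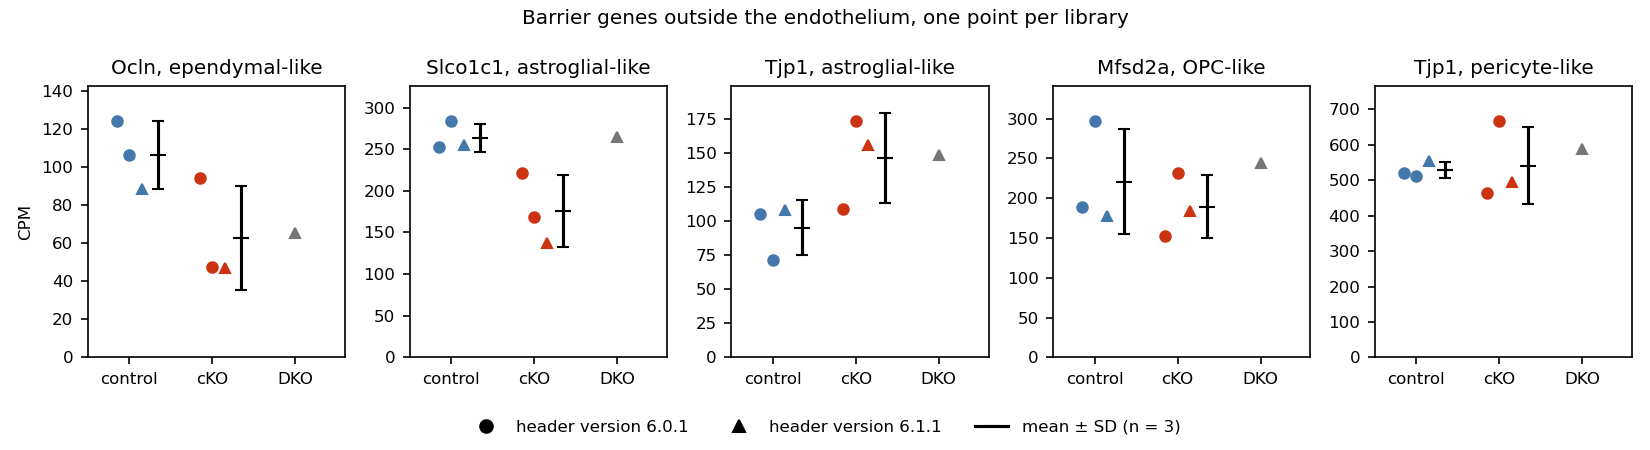
Level (CPM, axes from 0) of Ocln in ependymal-like, Slco1c1 and Tjp1 in astroglial-like, Mfsd2a in OPC-like and Tjp1 in pericyte-like cells, with 1 point per library by genotype and bars for the mean ± SD of 3 libraries. The cKO points of Slco1c1 lie below 222 CPM and the controls above 252 CPM, and cKO library 1 (the leftmost cKO point) lies closest to the controls for Ocln, Slco1c1 and Tjp1 in astroglial-like cells.

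The DKO library was a single library and was not tested. In its endothelial-like cells Cldn5 (4098 CPM), Abcb1a (831 CPM) and Slco1a4 (1493 CPM) were below all 6 other libraries, and Abcg2 (683 CPM) and Slc7a5 (497 CPM) above all of them. These are 5 of 10 members outside the range of the other libraries, as were 30.8% of the 11817 tested genes. The Cldn5 level of its capillary cells was 3819 CPM, against 4559 to 6927 CPM in the other libraries, while its arterial Cldn5 (5125 CPM) and venous Cldn5 (5485 CPM) lay within their ranges. Its header version, 6.1.1, is shared with control 3 and cKO 3. As it is the only DKO library, genotype and other differences between libraries cannot be told apart.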

How the data were processed

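The authors deposited raw UMI counts per gene and barcode for 7 libraries of the 10x Genomics 3′ v3.1 kit, made with Cell Ranger on GRCm38 without normalization. The file headers name versions 6.0.1 and 6.1.1, the submitters' processing notes 6.1.1, and the methods another. Of 32285 gene IDs, 32158 were found in GENCODE vM21. Libraries of 1 group never held the same counts (chi-square per degree of freedom of at least 58.2).

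Cells were filtered, gated and thinned as described, and the 10 members and all gene lists were chosen with earlier results of these data known. Scrublet (scanpy 1.11.5, expected rate 0.08) marked doublets, which were kept except in an alternative. In control library 1 its threshold failed (0.0130% marked) and the median of the others was used. Counts were summed per library and type (at least 10 cells) and tested with edgeR 4.0.16 (filterByExpr, TMM, robust quasi-likelihood fit of all 7 libraries, Benjamini-Hochberg over all genes). The code was tested on simulated data. Intervals of log2 fold changes are 95% from the fit. Single shares and levels were compared by exact two-sided permutation tests.

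Named genes were the 10 members, up to 4 called genes at either end of each other barrier list in the arterial and capillary contrast, the reference genes Slc2a1, Tfrc, Plvap, Cdh5 and Cav1, the targeted genes, and the 5 genes most like Cldn5, Lsr and Slco1c1, except 1 gene that is not reported here. Alternatives were no doublets, at most 5% mitochondrial counts, a stricter gate, no filter on low counts, DESeq2 1.42.0, clusters, a replicate block, each library left out and, chosen after seeing the data, the libraries of header version 6.0.1 alone. Same-numbered libraries deviated together from their group means in endothelial-like cells (correlations of 0.35, 0.15 and 0.45), which met the criterion for pairing, though in each of the 10 other types checked at least 1 number fell below 0.1. Numbers 1 and 2 share header version 6.0.1 and number 3 version 6.1.1. The genotype fits, intervals and permutation tests reported are unpaired. Blocked values are given for endothelial-like cells only, as counts of called genes and for Tjp1. For the other types it is given only that the block changed no call of a member. With the 3 libraries per group, p-values between genotypes measure the spread between pools of mice. The unpaired fits do not model the header version, so differences along it are part of that spread. In the contrasts of types and zones, with the library as a block, p-values measure the spread of differences within libraries.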

Additional observations from a re-analysis of the deposited data

How the results depend on the processing

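Against pericyte-, smooth muscle-, astroglial-, ependymal- and microglia-like cells, 10 members stayed called under every alternative run, except 9 against pericyte-like cells at 5% mitochondrial counts, a setting that could not be fitted for smooth muscle-like cells. Between zones, the stricter gate left 2 of the 4 members called between arterial and capillary cells, and 5% mitochondrial counts left 2 of the 4 between venous and capillary cells. With each library left out, the first stayed at 4, the second ran from 2 to 4 (2 without control library 3 or cKO library 2), and the 7 called between venous and arterial cells ran from 6 to 7 (5 at 5% mitochondrial counts and with the stricter gate). Between genotypes in endothelial-like cells, 0 members were called in any fit, while the genes called rose from 0 to 1 without doublets, 38 with no filter, 6 with DESeq2, 2 with clusters and 12 with the replicate block, and ran from 0 to 7 with each library left out (7 without cKO library 3). In the other 11 types, 1 member was called with no filter, and 0 to 3 with each library left out (3 without cKO library 1, as described for Ocln, Slco1c1 and Tjp1). The replicate block changed no call of a member.

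The difference in smooth muscle-like share, -0.000718 percentage points, was 0.00453 with the stricter gate and -0.0270 to 0.0515 with each library left out, and the endothelial and pericyte differences ran from 1.12 to 2.62 and from 0.491 to 0.759. Uncalled fold changes also changed sign. With each library left out, endothelial Cldn5 ran from -0.129 (without cKO library 1) to 0.140, Ocln from -0.139 to 0.0607 (cKO 3), Slco1a4 from -0.0627 (control 3) to 0.229, Mfsd2a from -0.0743 (cKO 2) to 0.355 and Slc7a5 from -0.187 (cKO 3) to 0.890, and Mfsd2a in OPC-like cells from -0.261 to 0.159 (control 2). Cldn5 was -0.00730 with the stricter gate and OPC-like Mfsd2a 0.0331 at 5% mitochondrial counts. The causes were not tested. Few cells limit some sums, with as few as 13 arterial, 12 venous, 11 smooth muscle-like and 10 fibroblast-like cells in a library used.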

Other observations

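Cells that no gate assigned still held members of the barrier list. Over the 7 libraries, the 5959 unassigned cells had 186 to 254 CPM of Cldn5, 65.6 to 143 CPM of Slco1a4, 31.5 to 50.1 CPM of Abcb1a and 8.67 to 13.4 CPM of Lsr, and 291 of these cells carried at least 4 endothelial markers. Scrublet marked 9.25% of unassigned cells as doublets, against 2.25% of endothelial-like cells.

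Capillary cells of cKO library 2 made up 71.3% of its endothelial-like cells and venous cells 14.4%, against 76.2% to 83.7% and 3.12% to 6.44% in the other 6 libraries.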
